A study of Homo sapiens with 4 samples.

Results

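The chemokine ligands CCL2 (ENSG00000108691.5), CCL5 (ENSG00000161570.4), CCL20 (ENSG00000115009.7), CXCL1 (ENSG00000163739.4), CXCL2 (ENSG00000081041.8), CXCL3 (ENSG00000163734.4), CXCL5 (ENSG00000163735.6), CXCL6 (ENSG00000124875.5) and IL8 (ENSG00000169429.6, the table's symbol for CXCL8) were followed in A549 cells after knockdown of CEBPB. They were picked by symbol, with earlier results of these data known. Each of the 9 matched 1 of the 57820 genes in the deposited table. A549 cells are a human lung adenocarcinoma line in wide use, called NRF2-activated in the series title, and CEBPB encodes a transcription factor of the C/EBP family. The 4 libraries were 2 of cells given Control siRNA, 1 of cells given CEBPB siRNA-1 and 1 of cells given CEBPB siRNA-2. All cells were grown in medium with 10% serum, which was renewed 24 h after transfection, and were harvested after a further 24 h. Each CEBPB siRNA has a single library, so the spread of the knockdown group also holds what differs from one siRNA to the other. Whether the controls were separate cultures is not in the labels, and p-values measure the spread of these libraries alone, which may be technical.

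Chemokines are small secreted proteins that guide leukocytes along concentration gradients by way of G protein-coupled receptors. CC chemokines, which have adjacent cysteines near the amino end, mainly attract monocytes, lymphocytes and dendritic cells, whereas the CXC members studied here bind CXCR2, and some also CXCR1, on neutrophils. In epithelial and tumour cells their genes are known to respond quickly to NF-kappaB, AP-1 and C/EBP factors, and IL8 is a classical target of all of these.

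The libraries summed to between 494066 and 528606 FPKM (fragments per kilobase, a level corrected for transcript length and depth) and listed 13752 to 14325 genes at 1 FPKM or more. The authors' mean normalized counts summed to 8341083, the only measure of depth in the table. CEBPB itself read 78.7 and 80.9 FPKM under Control siRNA, 12.9 under siRNA-1 and 10.97 under siRNA-2, a log2 change of -2.65 ± 0.17 (SE, n = 2 libraries per group; limma adjusted p = 0.0167). All 7 epithelial and A549 markers were tested, with the keratins KRT8, KRT18 and KRT7 highest. They summed to 5593 and 7229 FPKM under Control siRNA, 3915 under siRNA-1 and 5044 under siRNA-2, and the authors' deposited table calls KRT18 lower. KRT7 went the other way, at 671 and 777 FPKM under Control siRNA, 1200 under siRNA-1 and 1162 under siRNA-2, without overlap and without passing in limma (log2 change 0.71, adjusted p = 0.186). Of 8 alveolar type II markers, 5 were listed at 0 in all libraries, among them NKX2-1, SFTPA1 and SFTPB. The list summed to 15.7 and 11.3 FPKM under Control siRNA, 26.0 under siRNA-1 and 22.8 under siRNA-2, nearly all of it ABCA3, which the authors' deposited table calls higher. Of 12 leukocyte markers 9 were listed at 0 in all libraries, PTPRC included, as were the 3 endothelial markers in the table. The fibroblast markers summed to 0.857 and 0.773 FPKM under Control siRNA, 4.83 under siRNA-1 and 2.92 under siRNA-2, with 1 of 8, COL1A1, reaching the expression filter. COL1A1 did not pass in limma (adjusted p = 0.198), but the authors' deposited table calls it higher (adjusted p = 0.00621). The epithelial, alveolar and fibroblast sums did not overlap between the groups, and their part in the chemokine results was not tested. The leukocyte markers summed to 11.2 and 13.8 FPKM under Control siRNA, 19.9 under siRNA-1 and 7.42 under siRNA-2, which overlap. Most of this sum is CD68, whose FPKM is uncertain, since the authors' deposited table gives it a mean normalized count of 0.754. In RNA from whole cultures, fewer cells of a type and less RNA per cell cannot be told apart.

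The upstream sequences of the genes are shown first because the CXC members lie together on chromosome 4 and share sequence there. RefSeq promoters (GRCh38.p14, whereas the submitters' processing notes name hg19) matched 7 of the 9 members by symbol; CCL2 and CCL5 did not match. The 250 bases before each transcription start are given 5′ to 3′ on the gene's own strand, and capitals mark every match to the motifs listed after them.
IL8, chr4:73740319-73740568, plus strand: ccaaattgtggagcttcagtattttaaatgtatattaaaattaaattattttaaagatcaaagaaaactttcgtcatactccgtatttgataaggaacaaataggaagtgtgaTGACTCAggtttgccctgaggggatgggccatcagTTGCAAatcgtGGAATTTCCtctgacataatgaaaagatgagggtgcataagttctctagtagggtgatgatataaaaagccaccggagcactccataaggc
CXCL1, chr4:73869143-73869392, plus strand: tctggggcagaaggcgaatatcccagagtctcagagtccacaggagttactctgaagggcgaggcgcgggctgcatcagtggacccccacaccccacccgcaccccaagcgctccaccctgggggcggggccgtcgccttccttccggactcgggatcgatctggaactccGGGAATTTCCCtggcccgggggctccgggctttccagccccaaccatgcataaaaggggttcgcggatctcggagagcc
CXCL2, chr4:74099196-74099445, minus strand: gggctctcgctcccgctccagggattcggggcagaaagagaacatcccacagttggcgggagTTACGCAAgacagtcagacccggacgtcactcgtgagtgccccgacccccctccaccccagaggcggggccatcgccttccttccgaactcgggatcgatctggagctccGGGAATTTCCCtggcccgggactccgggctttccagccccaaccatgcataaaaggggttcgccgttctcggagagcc
CXCL3, chr4:74038690-74038939, minus strand: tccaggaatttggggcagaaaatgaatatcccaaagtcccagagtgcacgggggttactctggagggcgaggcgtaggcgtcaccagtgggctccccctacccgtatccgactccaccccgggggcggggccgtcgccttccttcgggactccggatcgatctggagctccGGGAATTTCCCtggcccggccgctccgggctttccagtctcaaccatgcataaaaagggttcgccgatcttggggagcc
CXCL5, chr4:73998678-73998927, minus strand: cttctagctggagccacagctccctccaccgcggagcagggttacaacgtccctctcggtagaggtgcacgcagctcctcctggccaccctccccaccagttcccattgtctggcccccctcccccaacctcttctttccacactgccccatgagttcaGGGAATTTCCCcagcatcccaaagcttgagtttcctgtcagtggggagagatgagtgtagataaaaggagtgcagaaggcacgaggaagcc
CXCL6, chr4:73836428-73836677, plus strand: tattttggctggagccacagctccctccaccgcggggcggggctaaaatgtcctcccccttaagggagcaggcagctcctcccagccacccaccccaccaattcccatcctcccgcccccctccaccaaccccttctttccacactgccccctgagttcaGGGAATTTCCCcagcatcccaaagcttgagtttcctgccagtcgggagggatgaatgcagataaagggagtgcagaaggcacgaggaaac
CCL20, chr2:227813592-227813841, plus strand: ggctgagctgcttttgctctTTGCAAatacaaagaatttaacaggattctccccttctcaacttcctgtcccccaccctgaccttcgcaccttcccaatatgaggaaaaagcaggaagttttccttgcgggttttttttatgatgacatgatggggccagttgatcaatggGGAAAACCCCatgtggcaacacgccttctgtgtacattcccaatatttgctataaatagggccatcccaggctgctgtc

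Both strands were searched for the C/EBP consensus TTGCNNAA (and so its reverse complement), the NF-kappaB consensus GGGRNNYYCC (10 bases) and the AP-1 consensus TGANTCA. In these letters R is A or G, Y is C or T and N is any base. A further search, chosen after the promoters were seen, covered the 6-base C/EBP-like TTGCAA and the longest run of bases common to all 6 CXC promoters. That run was GGAATTTCC, 9 bases long, and it overlaps the NF-kappaB match in every promoter that holds both. It began 91 bases before the start of IL8, 78 before CXCL1, 77 before CXCL2, 78 before CXCL3, 90 before CXCL5 and 89 before CXCL6. The run was present in 0.413% of 35091 promoters of the same length. The NF-kappaB consensus matched in CCL20 and in the 5 CXC genes other than IL8, and in 9.95% of all promoters. In IL8 the run follows a T where the consensus has G, and its 9 bases fit the rest of the consensus. The C/EBP consensus matched once, in CXCL2, as TTACGCAA from 188 to 181 bases before the start, and in 9.05% of all promoters. AP-1 matched only in IL8, 137 to 131 bases before the start (6.57% of all promoters). TTGCAA was found in IL8 from 102 to 97 bases before the start and in CCL20 from 230 to 225, and in 4.73% of all promoters. The promoters also fell into related pairs and triples. CXCL5 shared 39.7% of its 8-base words with CXCL6, and CXCL1 shared 34.2% with CXCL2 and 30.9% with CXCL3, whereas IL8 shared at most 1.24% with any of the others. A match describes the letters and does not show that a factor binds there.

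**Figure D1:**
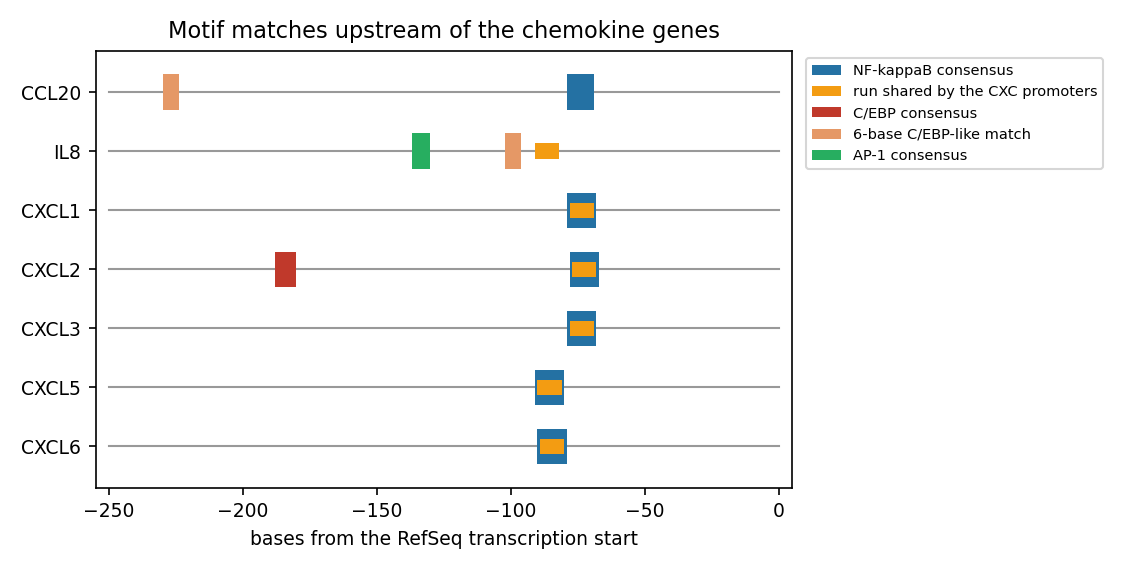
Motif matches in the 250 bases before the start of 7 chemokine genes. The horizontal axis gives distance from the RefSeq transcription start in bases, each line is 1 gene and each block is a match. The run shared by the 6 CXC promoters lies between 91 and 69 bases before the start in all of them, and the single C/EBP consensus match is in CXCL2.

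In control cells the chemokine transcripts were mostly neutrophil attractants. CXCL5, which acts through CXCR2, was at 329 and 522 FPKM, and CXCL1, a melanoma growth-stimulating CXC chemokine that also binds CXCR2, at 266 and 273. CXCL5 made up 38.8% and 50.5% of the FPKM of the 9 members in the controls and CXCL1 31.4% and 26.4%. CCL2, IL8, CXCL3, CXCL2, CCL20 and CCL5 followed in that order, and the control ranges of neighbours in this order did not overlap. CXCL6, a close relative of CXCL5, was listed at 0 in all 4 libraries, and the authors' deposited table gives it a mean normalized count of 0.488. The expression filter, which asks for an average of 1 FPKM or more, thus kept 8 of the 9 members.

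Changes are differences of log2(FPKM + 1), tested in limma, a linear model fitted across all genes that borrows their spread, and a gene passed at a Benjamini-Hochberg adjusted p below 0.05 over all of them. Of the 8 tested members, 1 rose and 0 fell with CEBPB siRNA in limma. Over all 14068 tested genes 0.064% rose and 0.171% fell. The members' median log2 change was 0.73, beside 0.00 for all tested genes. For 3 members, CCL2, IL8 and CXCL2, both siRNA libraries lay above both controls, where 23.5% of all tested genes did so. For 0 members both lay below, where 21% of all tested genes did so. The authors' deposited table calls the same 3 members higher and 0 lower, beside 2.71% and 1.42% of its 14675 genes with an adjusted p. Both analyses rest on the same 4 libraries, and the members were chosen with earlier results of these data known.

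**Figure D2:**
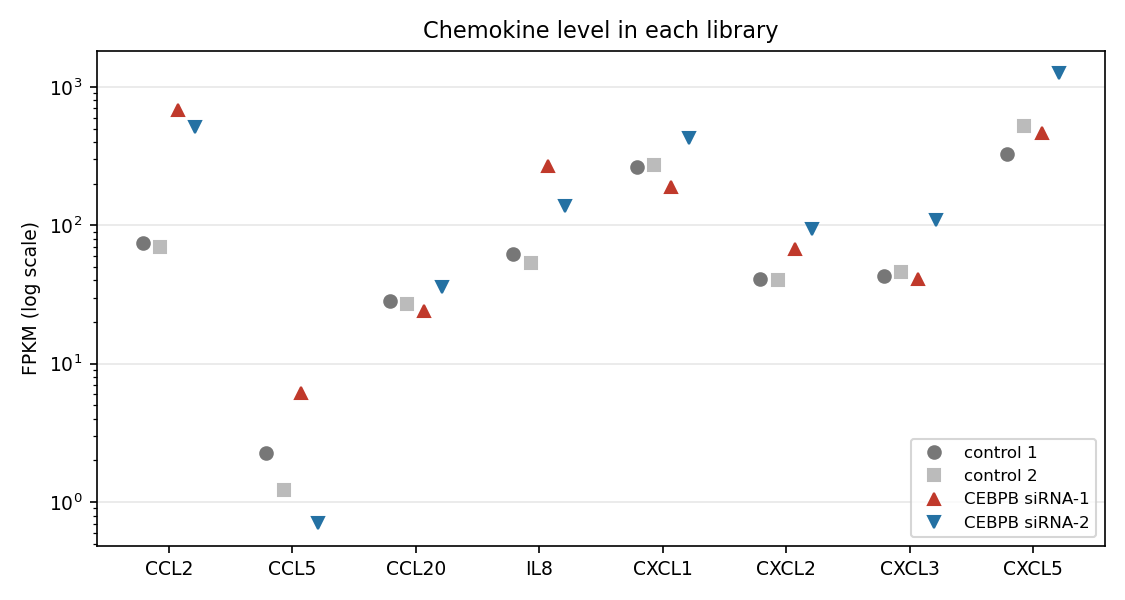
Level of 8 chemokines in each library, in FPKM on a log axis, with 1 point per library. CCL2, IL8 and CXCL2 have both siRNA points above both control points, while CXCL1, CXCL3, CCL20 and CCL5 have them on opposite sides; CXCL6 was listed at 0 throughout and is not drawn.

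CCL2, also called MCP-1, recruits monocytes through CCR2. It was at 74.2 and 70.1 FPKM under Control siRNA, 682 under siRNA-1 and 517 under siRNA-2. Both siRNA libraries were far above the controls, 9.45-fold and 7.17-fold over the control mean, while the controls differed from each other by 1.06-fold. On the log2 scale the change was 3.02 ± 0.19 (SE, n = 2 libraries per group; 95% interval 2.56 to 3.49), and in limma CCL2 passed over all genes (adjusted p = 0.0167). The authors' deposited table has 3.04 (adjusted p = 1.56e-28) from a mean normalized count of 2378. The limma call was lost without control 1 (log2 change 3.06, adjusted p = 0.461), without control 2 (2.98, adjusted p = 0.328) and with no expression filter (adjusted p = 0.262), with the size of the change nearly as before. CCL7, CCL11, CCL8 and CCL13, the related genes that follow CCL2 on chromosome 17 in the RefSeq order, were listed at 0 in all 4 libraries.

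IL8 encodes interleukin 8, the best known neutrophil chemoattractant, which binds CXCR1 and CXCR2. Its level was 62.3 and 53.8 FPKM under Control siRNA, 268 under siRNA-1 and 138 under siRNA-2. Both siRNA libraries exceeded both controls, by 4.61-fold and 2.38-fold over the control mean, and the siRNA-1 library was 1.94-fold above the siRNA-2 library. On the log2 scale IL8 differed by 1.71 ± 0.32 (SE, n = 2 libraries per group; 95% interval 0.91 to 2.52) and did not pass over all genes in limma (adjusted p = 0.146). A fit that treats the siRNAs as separate groups gave the same change. Each siRNA has 1 library there, so the spread comes from the 2 controls alone and no p-value is given. The authors' deposited table lists IL8 at 1.74 on the log2 scale (adjusted p = 2.11e-05).

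CXCL2, a CXCR2 ligand made early in inflammation, was at 40.9 and 40.5 FPKM under Control siRNA, 67.9 under siRNA-1 and 94.7 under siRNA-2. The controls were nearly equal and both siRNA libraries were above them, by 1.67-fold and 2.33-fold. The log2 change of 0.96 ± 0.20 (SE, n = 2 libraries per group; 95% interval 0.45 to 1.47) did not pass in limma over all genes (adjusted p = 0.174). The authors' deposited table gives 0.97 with an adjusted p of 0.0119. Of the 7 members with a promoter to search, CXCL2 alone matched the C/EBP consensus upstream, as did 9.05% of all promoters. CCL2 and CCL5 could not be searched, and any part of the match in the change was not tested.

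For the other CXC genes the libraries of the groups overlapped. CXCL3 was at 43.2 and 45.7 FPKM under Control siRNA, 40.9 under siRNA-1 and 109 under siRNA-2. The siRNA-2 library alone stood above the controls, by 2.45-fold, and the siRNA-1 library lay just below them. CXCL3 did not pass in limma (log2 change 0.58 ± 0.44, adjusted p = 0.657). CXCL1 was at 266 and 273 FPKM under Control siRNA, 188 under siRNA-1 and 427 under siRNA-2, so its siRNA libraries lay on either side of the controls. The log2 change was 0.07 ± 0.38 (adjusted p = 0.959). CXCL5 was at 329 and 522 FPKM under Control siRNA, 468 under siRNA-1 and 1256 under siRNA-2. Its siRNA-1 value lay between the controls, which themselves differed by 1.59-fold, and siRNA-2 was 2.95-fold above their mean (log2 change 0.89 ± 0.49, adjusted p = 0.545). None of these 3 passes in the authors' deposited table either, where CXCL5 has the highest mean normalized count of the members, 15480, and an adjusted p of 0.206.

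CXCL1, CXCL2 and CXCL3 are close paralogs, and reads could be split between them. Of the 76-base windows of their coding transcripts in GENCODE 29, the length of the reads, 0.196% of those of CXCL1, 2.1% of those of CXCL2 and 2.2% of those of CXCL3 were found exactly in the transcript of another gene, in each case another of the 3. Their summed FPKM was 350 and 359 under Control siRNA, 297 under siRNA-1 and 631 under siRNA-2. Relative to the control mean the sum was 0.836 under siRNA-1 and 1.78 under siRNA-2. CXCL1, at 266 and 273 FPKM under Control siRNA, made up most of the sum, so the sum largely follows CXCL1. CXCL2 alone of the 3 was above both controls with both siRNAs. CCL2, CCL20 and IL8 had no window in common with another gene, and 7.88% of the CCL5 windows were shared.

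Among the CC chemokines, CCL20, the ligand of CCR6 that draws dendritic cells and Th17 cells to mucosa, was at 28.5 and 27.2 FPKM under Control siRNA, 23.9 under siRNA-1 and 36.0 under siRNA-2. Its libraries lay on either side of the controls, with a log2 change of 0.07 ± 0.23 (adjusted p = 0.928). CCL5, or RANTES, which attracts T cells, was low, at 2.28 and 1.22 FPKM under Control siRNA, 6.12 under siRNA-1 and 0.704 under siRNA-2. The siRNA-1 library was above both controls and the siRNA-2 library below both, and the log2 change was 0.37 ± 0.67 (adjusted p = 0.875). CCL5 rests on few reads: the authors' deposited table gives a mean normalized count of 33.4 and an adjusted p of 0.904.

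**Figure D3:**
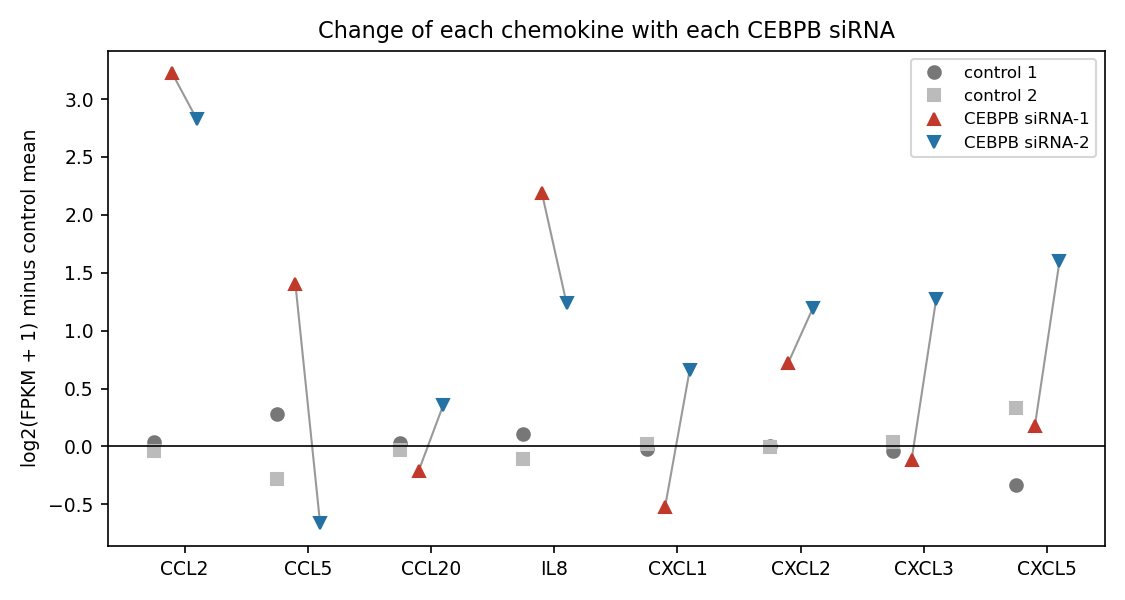
Change of each chemokine with each CEBPB siRNA, as log2(FPKM + 1) minus the mean of the controls, with 1 point per library and a line joining the siRNA libraries. CCL2, IL8 and CCL5 are higher with siRNA-1 than with siRNA-2, and CCL20, CXCL1, CXCL2, CXCL3 and CXCL5 are higher with siRNA-2.

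The siRNAs left similar levels of CEBPB, and the chemokines were next compared for each siRNA alone. With siRNA-1 set against both controls, 3 of the 8 members passed, CCL2, IL8 and CXCL2, where 6.18% of all genes were called higher and 6.35% lower (31.3% in either direction by unadjusted p below 0.05). With siRNA-2 set against the same controls, CCL2, CXCL2 and CXCL3 passed, where 0.199% of all genes were called higher and 0.313% lower (14.8% by unadjusted p). Each of these fits has 1 library in the knockdown arm, which is assumed to vary like the controls. The median log2 change of the 8 members was 0.45 under siRNA-1 and 1.22 under siRNA-2, beside -0.03 and 0.04 for all tested genes. Of the members, 4 (CCL5, CCL20, CXCL1 and CXCL3) had the siRNA libraries on opposite sides of both controls, as did 20.3% of all tested genes.

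The difference between the siRNAs was tested directly in the fit with separate siRNA groups, and 0 of the 8 members passed over all genes, where 0.114% of genes were called higher with siRNA-1 and 0.327% lower, 0.441% in all. Each siRNA has 1 library, so the spread behind these p-values and intervals comes from the 2 controls alone, which may differ only technically, and assumes that the siRNA libraries vary alike. By limma's unadjusted p, 8 of 8 were below 0.05, where 22.4% of all tested genes were. CXCL3 came nearest, 2.66-fold higher with siRNA-2 (log2 difference -1.39, 95% interval -1.78 to -1.0, limma adjusted p = 0.0525). CXCL1 was 2.28-fold higher with siRNA-2 (-1.18, interval -1.55 to -0.81, adjusted p = 0.0542) and CXCL5 2.68-fold (-1.42, interval -2.29 to -0.55, adjusted p = 0.107). CXCL2 and CCL20 differed less, by -0.47 (interval -0.85 to -0.10) and -0.57 (interval -0.98 to -0.15). In the other direction CCL5 was 8.7-fold higher with siRNA-1 (2.06, interval 1.13 to 3.0, adjusted p = 0.0755). IL8 was 1.94-fold higher with siRNA-1 (0.95, interval 0.52 to 1.39, adjusted p = 0.076) and CCL2 1.32-fold (0.40, interval 0.02 to 0.77, adjusted p = 0.205). The median absolute difference of the members was 1.07, beside 0.299 for all tested genes. Of the alternatives run for this difference, CXCL3 passed only with libraries scaled by median of ratios (-1.30). It did not pass with other pseudocounts, with no expression filter or with upper-quartile scaling. With 1 library per siRNA, a difference between siRNAs and a difference between cultures cannot be told apart.

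**Figure D4:**
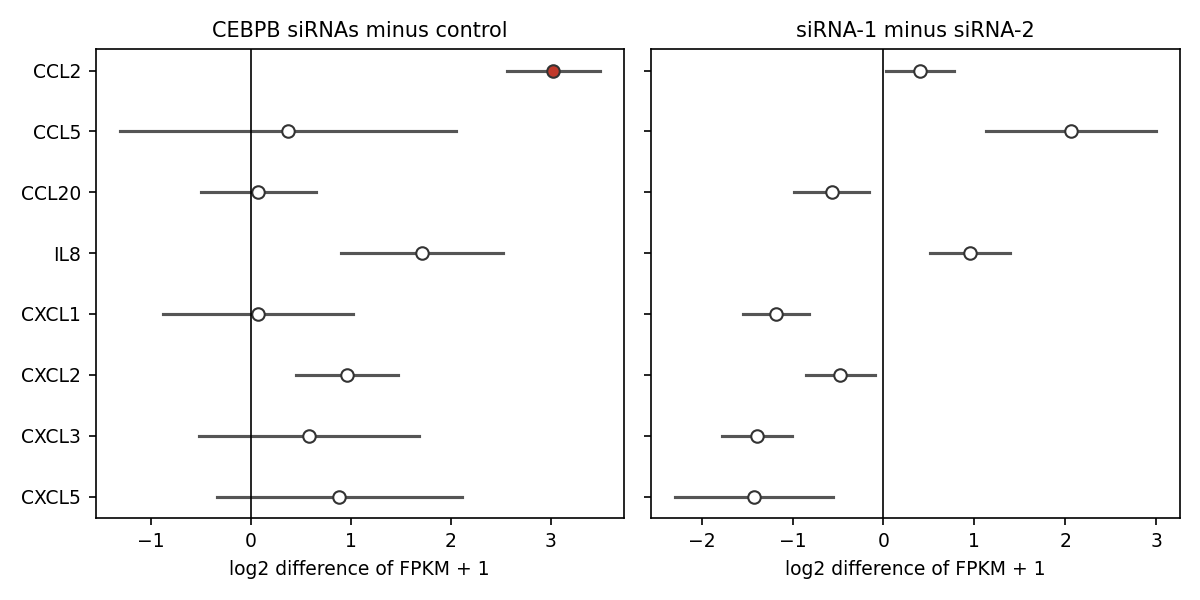
Log2 differences of FPKM + 1 for 8 chemokines with 95% intervals from limma, for the CEBPB siRNAs minus control on the left and siRNA-1 minus siRNA-2 on the right. A filled point passed over all genes at an adjusted p below 0.05, which CCL2 alone did, on the left; the intervals are not adjusted for the number of genes.

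Shares of the summed chemokine level differed between the libraries in the balance of CC and CXC ligands. CC members held 12.4% and 9.53% of the members' FPKM under Control siRNA, 40.8% under siRNA-1 and 21.5% under siRNA-2. CCL2 alone held 8.77% and 6.78% under Control siRNA, 39.1% under siRNA-1 and 20.1% under siRNA-2. IL8 took 15.3% with siRNA-1 but 5.35% with siRNA-2, within the range of the controls (7.37% and 5.2%). CXCL1 held 10.8% under siRNA-1 and 16.6% under siRNA-2, less than in either control, though its level with siRNA-2 was above the controls. The summed FPKM of all 9 members was 846 and 1034 under Control siRNA, 1744 under siRNA-1 and 2578 under siRNA-2. These sums are descriptions without a test.

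**Figure D5:**
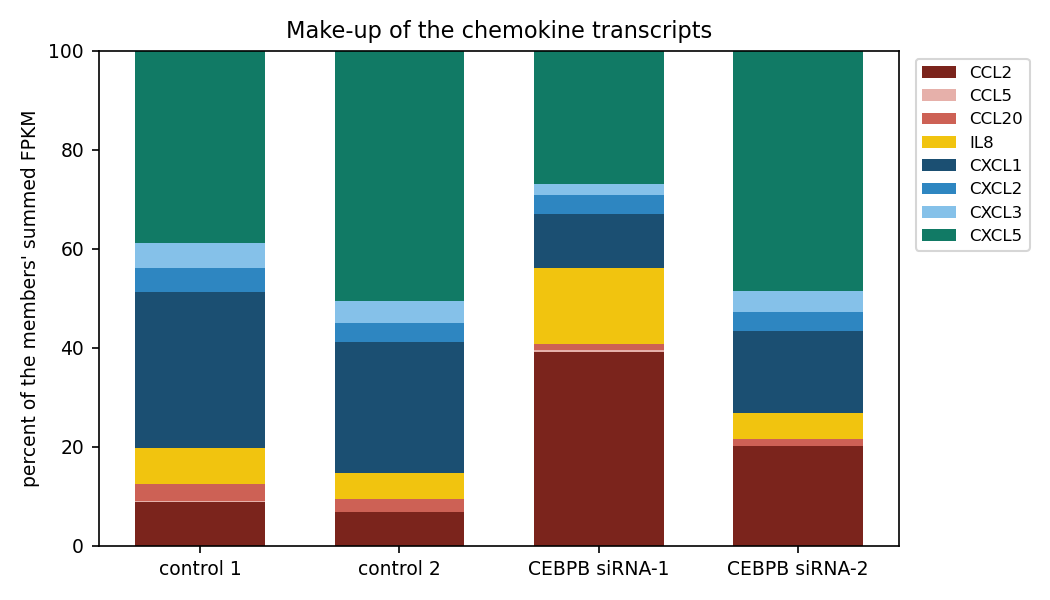
Make-up of the chemokine transcripts in each library, as the percentage of the 9 members' summed FPKM, with 1 stacked bar per library. The CC members CCL2, CCL5 and CCL20 hold 12.4% and 9.53% under Control siRNA, 40.8% under siRNA-1 and 21.5% under siRNA-2.

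Most other chemokine genes were listed at 0 in these cells. Of 28 other CC, C and CX3C chemokines 20 were listed at 0 in all 4 libraries and 0 reached the expression filter. Of 11 other CXC chemokines 7 were listed at 0 throughout and 1 was tested, the membrane-bound CXCL16, at 7.61 and 8.16 FPKM under Control siRNA, 13.8 under siRNA-1 and 8.74 under siRNA-2 (log2 change 0.44, adjusted p = 0.558). CXCL10 and CXCL11, the interferon-induced ligands of CXCR3, were among those at 0. No chemokine receptor reached the filter: of 23 in the table, 13 were listed at 0 throughout. CCR7, the highest by mean, was at 0.6 and 1.06 FPKM under Control siRNA, 0.707 under siRNA-1 and 0.555 under siRNA-2.

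All 14 NF-kappaB subunits and inhibitors were tested. None passed in limma over all genes, 4 had an unadjusted p below 0.05 (12.2% of all genes did), and the median log2 change was 0.30. For 9 of the 14 both siRNA libraries were above both controls and for 1 both were below, beside 23.5% and 21% of all genes. The authors' deposited table calls 1 higher and 0 lower (2.71% and 1.42% of all its genes), namely TNFAIP3, the A20 feedback inhibitor, at 0.90 (adjusted p = 0.0249). TNFAIP3 was at 8.61 and 6.2 FPKM under Control siRNA, 15.2 under siRNA-1 and 14.1 under siRNA-2. NFKB1, the p105 and p50 precursor gene, was at 13.1 and 11.7 FPKM under Control siRNA, 21.4 under siRNA-1 and 18.1 under siRNA-2, without passing in limma (adjusted p = 0.275). NFKBIA, which encodes the inhibitor IkappaB alpha, was at 94 and 102 FPKM under Control siRNA, 169 under siRNA-1 and 95.2 under siRNA-2, so its siRNA-2 value lay within the control range.

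Of 23 cytokines, receptors and adaptors that induce chemokines, 12 were tested and 0 passed in limma, with 2 at an unadjusted p below 0.05 (12.2% of all tested genes) and a median log2 change of -0.07. For 1 of the 12 both siRNA libraries were above both controls and for 3 both were below, beside 23.5% and 21% of all tested genes. The authors' deposited table calls 2 higher and 0 lower (2.71% and 1.42% of all its genes), TNF and its receptor TNFRSF1B. TNF, at 0 in each control, reached 3.12 FPKM under siRNA-1 and 0.815 under siRNA-2. TNFRSF1B, also at 0 in each control, reached 1.258 and 0.142 FPKM. Both stayed under the expression filter, and the authors' deposited table bases them on mean normalized counts of 16.2 and 12.6. The more abundant TNF receptor gene, TNFRSF1A, went the other way and was named after its values were seen. It was at 189 and 196 FPKM under Control siRNA, 101 under siRNA-1 and 147 under siRNA-2. It did not pass in limma (log2 change -0.66, adjusted p = 0.318). IL1B was listed at 0 in all libraries.

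Chemokine mRNAs are known to be unstable, because AU-rich elements recruit decay factors of the ZFP36 family. In the longest coding transcript of each gene, the pentamer ATTTA occurred 10 times in CXCL2, or 8.21 times per kilobase, a density that 0.0203% of 19702 coding genes reach. It occurred 10 times in IL8, 7 times in CXCL3, 5 times in CXCL1, 11 times in CXCL5, 6 times in CXCL6 and 4 times in CCL20, with densities between 3.49 and 6.51 per kilobase beside a median of 0.937. CCL2 had 1 and CCL5 had 0. Of 10 AU-rich element binding proteins tested, 0 passed in limma and 3 had an unadjusted p below 0.05, beside 12.2% of all tested genes. The authors' deposited table calls 1 higher and 0 lower, beside 2.71% and 1.42% of all its genes. That gene, ZFP36L1, was at 41.0 and 38.6 FPKM under Control siRNA, 81.7 under siRNA-1 and 89.5 under siRNA-2 (log2 change 1.08 ± 0.15, limma adjusted p = 0.0983; 1.09 in the authors' deposited table). ZFP36, or tristetraprolin, was at 19.9 in both controls, 14.6 under siRNA-1 and 8.76 under siRNA-2, and ZFP36L2 at 13.1 and 17.4 under Control siRNA, 6.56 and 9.54, without passing (adjusted p = 0.333 and 0.276). These 2 genes were named after their values were seen.

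Within the C/EBP family 1 of 6 tested genes fell in limma and 0 rose, beside 0.171% and 0.064% of all tested genes. The 1 was CEBPB, the target of the siRNAs. CEBPA, also tested, has a mean normalized count of 0.507 in the authors' deposited table, so its FPKM is uncertain. CEBPD, which binds the same sites, was at 21.6 and 24.2 FPKM under Control siRNA, 20.5 under siRNA-1 and 30.9 under siRNA-2.

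Genes with the pattern nearest to that of CCL2 and of IL8 were ranked by the Euclidean distance of their 4 log2 values, each relative to the control mean, among 9510 genes averaging 5 FPKM or more. MT2A, a metallothionein, was nearest to CCL2 (distance 0.447), followed by the class I antigen gene HLA-B (0.571), AKAP2 (0.636), the potassium channel KCNMA1 (0.729) and the BCL2 family gene BCL2A1 (0.797). AKAP2 has a mean normalized count of 0.488 in the authors' deposited table, so its FPKM is uncertain. COL7A1, which encodes the collagen of anchoring fibrils, was nearest to IL8 (0.151): it was at 22.1 and 16.7 FPKM under Control siRNA, 96.8 under siRNA-1 and 46.1 under siRNA-2. SH2D3A (0.163), the lysyl oxidase LOXL2 (0.19), the basement membrane proteoglycan HSPG2 (0.191) and PARP12 (0.204) followed. These distances rest on 4 libraries and are descriptions.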

How the data were processed

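Total RNA of A549 cells was sequenced as strand-specific, 76-base single-end libraries, per the labels' protocols. The submitters' processing notes list build hg19, DESeq2 1.26.0, HTSeq 0.13.5, StringTie 2.1.4 and STAR 2.7.0d, without their roles. The deposited table has 1 value per library with no unit in its headers, taken as FPKM because the values are not whole, the gene columns are named as StringTie names them, and the sums differ between libraries as those of TPM would not. The authors' comparison stands beside them, per the file headers: a signal (mean normalized count), a log2 fold change with its standard error, a score (Wald statistic), and a p-value with its adjusted form.

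Groups came from sample titles. Log2(FPKM + 1) of 14068 genes averaging 1 FPKM or more was fitted in limma 3.58.1 under R 4.3.3, with an intensity trend and without a block, and p-values were adjusted by Benjamini-Hochberg over all of them, with a threshold of 0.05. The residual degrees of freedom were 2, and the prior added 3.61. Changes on this scale understate those of low genes. Differences between the siRNAs came from a fit with 3 groups, with 1 residual degree of freedom. An exact permutation test of 2 libraries against 2 cannot go below p = 0.333. The design planned a count test if the table held counts; it held FPKM, and the planned limma test was used. The fits were tested on simulated data. Promoters are RefSeq's (GRCh38.p14) and transcripts GENCODE 29's; sequence comparisons used exact matches.

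The 9 members and the gene lists were chosen with earlier results of these data known. Named genes were all members, CEBPB, up to 4 called genes per list (otherwise the highest by mean level), neighbours within 100 kb averaging at least 1 FPKM, and the 5 nearest patterns to CCL2 and IL8; other names were chosen after their values were seen. Alternatives were other pseudocounts, filters and scalings, a replicate block, a fit with 3 groups, no trend, and leaving out each library.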

Additional observations from a re-analysis of the deposited data

How the results depend on the processing

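The direction of CCL2, CXCL2, CXCL5 and IL8 was kept under every alternative run, and the range without each library was 2.82 to 3.22 for CCL2, 0.72 to 1.20 for CXCL2, 1.24 to 2.19 for IL8 and 0.18 to 1.60 for CXCL5, which was lowest without the siRNA-2 library. Direction depended on the siRNA library kept for CXCL1 (-0.52 to 0.66), CXCL3 (-0.12 to 1.28), CCL20 (-0.21 to 0.36), CCL5 (-0.66 to 1.40) and the summed CXCL1, CXCL2 and CXCL3 (0.836 to 1.78 of control). CEBPB ranged from -2.75 to -2.54. CCL2 and CEBPB did not pass without control 1 (adjusted p = 0.461 for both) or without control 2 (0.328 for both). With the siRNAs as 3 groups CXCL2 (0.96), CXCL3 (0.58) and IL8 (1.71) passed, and 538 genes were higher and 433 lower. Without a filter on low values CCL2 (3.02) and CEBPB (-2.65) did not pass (adjusted p = 0.262), and limma called 0 genes (2438 at an unadjusted p below 0.05); the cause was not tested. Without each library 0 to 870 genes were higher and 0 to 894 lower; the 0 held without control 1 (736 at an unadjusted p below 0.05) and without control 2 (685). Between the siRNAs 62 genes passed, but 1 with a pseudocount of 0.1, 1915 without a filter, 171 with median-of-ratios scaling, under which CXCL3 passed (-1.30), and 165 with upper-quartile scaling. Same-numbered libraries are not known to be paired (correlation of their deviations 0.0754 across genes); with the number as a replicate block 14 genes were lower instead of 24, CCL2 kept its call (adjusted p = 0.0313) and no other member passed. With 2 libraries per group, and 1 per siRNA, the number of libraries limits the precision, and CCL5 is also limited by its depth.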

Other observations

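Transcripts of proteins that cut or hold secreted chemokines were also measured. Of 13 such proteases and glycosaminoglycan carriers 8 were tested, and 0 passed in limma with 1 at an unadjusted p below 0.05 (12.2% of all tested genes). The authors' deposited table calls 2 higher and 0 lower (2.71% and 1.42% of all its genes). SDC4, the syndecan 4 heparan sulfate carrier, was at 13.7 and 13.6 FPKM under Control siRNA, 32.4 under siRNA-1 and 21.2 under siRNA-2, and has a log2 change of 0.96 in the authors' deposited table (adjusted p = 0.0428). MMP9, a gelatinase, was at 0 in each control and reached 0.807 and 1.32 FPKM under siRNA-1 and siRNA-2. Few reads lie behind MMP9, with a mean normalized count of 8.27 in the authors' deposited table. Syndecan 1, SDC1, named after its values were seen, was at 58.5 and 59.7 FPKM under Control siRNA, 8.63 under siRNA-1 and 70.2 under siRNA-2. With 1 library per siRNA, this is given as a description.

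Genes beside the members on the chromosomes were looked up as well. Within 100 kb of a member in the RefSeq order, 23 neighbours were in the table and 4 had a mean of at least 1 FPKM. MTHFD2L, next to CXCL2, was at 5.15 and 5.08 FPKM under Control siRNA, 3.64 under siRNA-1 and 5.77 under siRNA-2. TAF15, near CCL5, was at 142 and 141 under Control siRNA, 175 and 138. RDM1, also near CCL5, was at 3.94 and 1.04 under Control siRNA, 1.86 and 1.16. SLC19A3, a thiamine transporter gene near CCL20, was at 2.74 and 2.69 under Control siRNA, 1.2 and 2.08. Of the 4 it alone had groups that did not overlap, with both siRNA libraries below both controls, as in 21% of all tested genes. None of the 4 passed in limma (adjusted p between 0.52 and 0.887) or in the authors' deposited table. The platelet chemokine genes PF4 and PPBP, which lie between CXCL1 and CXCL5, were below 1 FPKM in all 4 libraries.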
